A study of Mus musculus with 6 samples.

Results

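The 56 genes described here encode the machinery that copies DNA: origin recognition and licensing factors, the MCM helicase and its activators, the replicative DNA polymerases, and the clamp, single-strand binding, ligation and fork protection proteins that work with them. They were the rows of a table of 13883 genes whose symbols match these families by name; the rule uses no measured value, but the families were proposed with earlier results of these data known. RNA was sequenced from wild-type mouse CD8 T cells, obtained from spleen and lymph nodes and activated with antibodies to CD3 and CD28. Control cells were kept overnight in 20 mM NaCl and treated cells in 20 mM DAHB, for which the labels give no other name, with 3 samples of 100000 cells in each group. All 6 samples shared the genotype, the activation and 1 batch label; the strain and age of the mice are not given in the sources used here. Whether the 3 samples of a group are separate cultures or animals is not stated, and the p-values measure only the spread between them, which may be technical.

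In G1 the origin recognition complex marks replication origins, and CDC6 and CDT1 load MCM helicase rings around the DNA there, a step called licensing. In S phase the CDC7-DBF4 kinase, CDC45, the GINS complex and MCM10 turn the loaded rings into active helicases, and polymerases alpha, delta and epsilon then copy the unwound strands. T cells leave quiescence after activation and divide rapidly, and many of these genes are then transcribed under the control of E2F transcription factors.

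In DAHB-treated cells 29 of the 56 genes fell, 12 rose and 15 did not pass the test (limma-trend, adjusted p under 0.05 over all genes tested). The falls were led by Orc5, Pole3, Dbf4, Mcm5 and Orc1 and the rises by Pold4, Chaf1b, Gins2 and Rpa1. All changes were small: the log2 fold changes ran from -0.57 for Orc5 to 0.52 for Pold4, with a median of -0.17, and none of the 56 reached 1.5-fold. In 3 of 16 alternative settings 1 gene did reach it: Pold1 after a correction for GC content and exon length (-0.68), and Orc5 without NaCl replicate 1 (-0.60) or DAHB replicate 2 (-0.60). All log2 fold changes are differences of log2(normalised count + 1), where a normalised count is the number of reads of a gene divided by 1 size factor per library. Rises and falls are therefore relative to the bulk of genes in these libraries.

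Over all 13804 genes tested, 58.5% passed the test, 29.4% rising and 29.1% falling, around a median log2 fold change of 0.00, and 23.2% both passed and changed at least 1.5-fold. Replication genes are abundant, with mean normalised counts over all libraries between 410.2 and 20480. Among the 7700 genes tested within that range, 66.9% passed, 24.8% rising and 42.2% falling; the median log2 fold change was -0.08, and 13.4% changed at least 1.5-fold. Of the replication genes 51.8% fell and 21.4% rose; no test of the difference from genes of like abundance was made, and the order of the shares that rose turned with the scaling. The groups did not overlap in 42 of the 56 genes, or 75% of them, against 63.4% of all genes tested and 71% in the same range of abundance. All 56 genes passed the filter on low values.

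**Figure D1:**
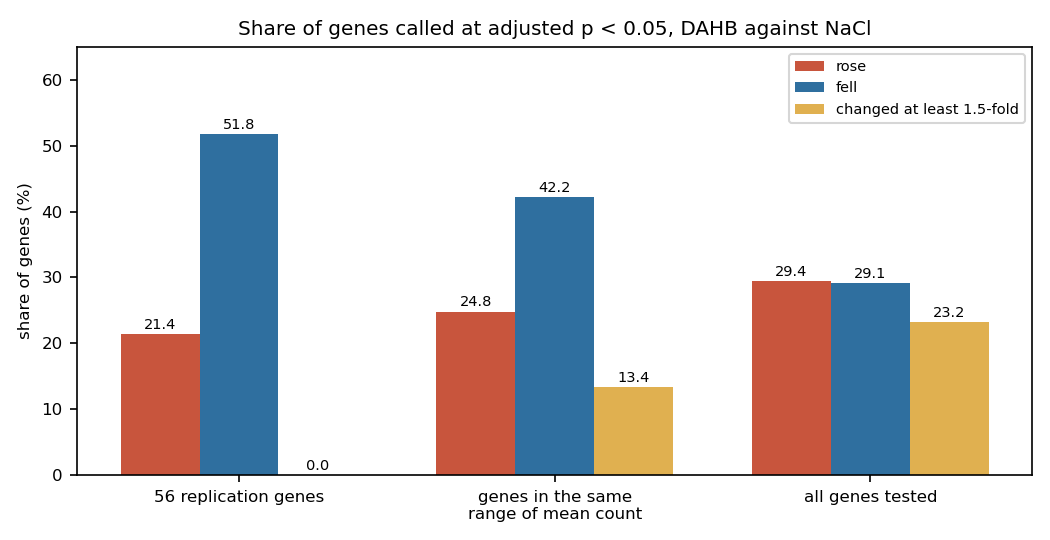
The bars show the percentage of genes that rose, fell, or passed the test with a change of at least 1.5-fold, in the 56 replication genes, the 7700 genes in the same range of mean count and all 13804 genes tested. Of the replication genes 51.8% fell and 21.4% rose, and none changed by 1.5-fold.

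The direction balance and the sizes depended on the scaling. With quantile scaling, which gives all libraries the same distribution of values, 19 of the 56 genes rose (33.9%) and 25 fell (44.6%), against 29.6% and 35.4% of genes of like abundance and 26.9% and 32.0% of all genes. The median log2 fold change was then -0.08 in the 56 genes, -0.03 in genes of like abundance and -0.07 in all genes. After removal of each library's trend with GC content and exon length, a check added after the data were seen, 17 rose (30.4%) and 26 fell (46.4%), against 31.4% and 40.3% of genes of like abundance and 33.5% and 28.5% of all genes. The medians were then -0.11, -0.04 and 0.03. None of the 41 genes that rose or fell was called in the opposite direction under any of 16 alternatives, while Pold2, which did not pass, was called in both under different ones. Of the 41 values, 15 moved by over 1.5 times after the correction for GC and length, 4 growing and 11 shrinking. Among the leading falls, Orc5 shrank to -0.32 and Dbf4 to -0.29, so that Pold1 (-0.68), Mcm5 (-0.57) and Pole3 (-0.51) then led. Among other genes described below, Orc3 grew to 0.42 and Prim1 to 0.42, while Orc2 shrank to -0.27, Mcm4 to -0.20, Mcmbp to -0.16, Rfc3 to -0.17 and Wdhd1 to -0.12, all still called. With quantile scaling 12 of the 41 moved as much, 2 growing (Orc3 to 0.26, Rfc2 to 0.25) and 10 shrinking, of which Cdc6 (-0.15), Cdc45 (-0.16), Mcm10 (-0.15), Mcmbp (-0.15) and Lig1 (-0.10) were still called. Reads assigned to the 56 genes made up 0.732%, 0.722% and 0.722% of reads assigned to genes of the table with NaCl. With DAHB they made up 0.677%, 0.674% and 0.678%, so the summed share was lower in every DAHB library. This sum is weighted towards the most abundant genes. Mean normalised counts were 14565 with NaCl and 10304 with DAHB for Mcm5, and 21870 and 19090 for Pcna. Mcm3, which did not pass, was at 19023 and 19867. For the lower share in bulk RNA, fewer cells in S phase and less RNA of the 56 genes per cell cannot be told apart. Neither was tested.

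**Figure D2:**
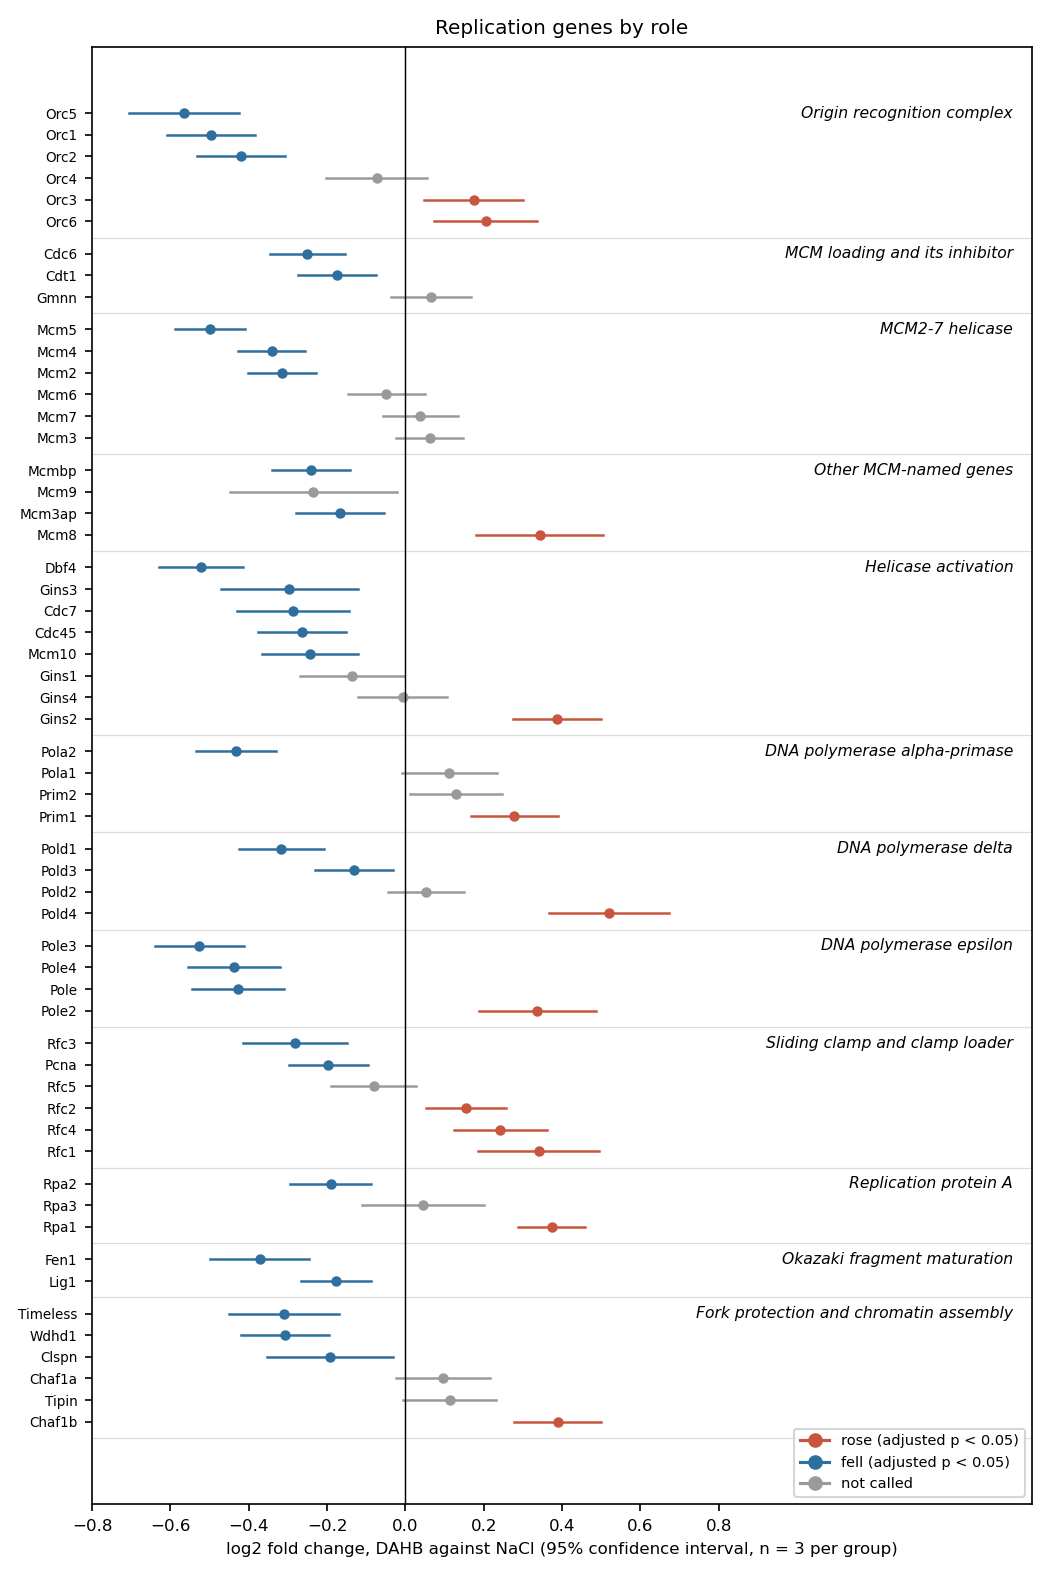
Points are log2 fold changes of the 56 genes, DAHB against NaCl, with 95% confidence intervals from limma-trend (n = 3 per group), grouped by role and sorted within each role. Blue genes fell, red genes rose and grey genes did not pass; most complexes hold both blue and red or grey members, and all points lie between -0.57 and 0.52.

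The E2F motif, searched as TTTGGCGC, TTTCCCGC, TTTGCCGC or TTTCGCGC on both strands, gives the sequence background of these genes. Promoter windows from RefSeq on GRCm38.p6, from 250 bases before to 50 bases after the start, were at hand for 47 of the 56 genes, taking the first listed start of each gene. At least 1 of these motifs was found in 18 of the 47 windows, or 38.3%, compared with 4.2% of 10193 promoters of genes in the deposited table and 2.32% of all 27025 promoters. It was present in 11 of 27 windows of genes that fell, 3 of 10 of genes that rose and 4 of 10 of genes that did not pass, so genes with the motif were found in all directions. The motif TTTGAA, known as a cell cycle homology region element, was found in 12.8% of the 47 windows. Its share was 11.8% in promoters of genes in the table and 18.1% in all promoters. It was found in 6 of 27 windows of genes that fell, 0 of 10 of genes that rose and 0 of 10 of genes that did not pass. This split by direction was not tested. CCAAT, the NF-Y motif, was found in 11 of 27, 6 of 10 and 8 of 10 of these windows, or 53.2% of the 47. Its share was 38.9% in promoters of genes in the table and 37.9% in all promoters. A match is only a match of letters, not a bound site. The windows of Orc5, Pole3 and Dbf4, among the leading falls, held no E2F motif, and that of Mcm8, which rose, held 1. The 250 bases before the start are shown for 3 genes that fell and hold the E2F motif there and for 2 that rose without it, a choice that does not stand for all genes of either direction. Each is given 5′ to 3′ on the gene's strand with the E2F letters in capitals.
Mcm5 promoter (fell, 2 motifs; chr8:75109259-75109508, plus strand): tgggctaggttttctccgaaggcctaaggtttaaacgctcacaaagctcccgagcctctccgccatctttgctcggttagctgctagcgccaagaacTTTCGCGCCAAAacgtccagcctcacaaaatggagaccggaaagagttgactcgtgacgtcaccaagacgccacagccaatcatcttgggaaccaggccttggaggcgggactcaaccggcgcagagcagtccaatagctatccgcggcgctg
Orc1 promoter (fell, 1 motif; chr4:108579204-108579453, plus strand): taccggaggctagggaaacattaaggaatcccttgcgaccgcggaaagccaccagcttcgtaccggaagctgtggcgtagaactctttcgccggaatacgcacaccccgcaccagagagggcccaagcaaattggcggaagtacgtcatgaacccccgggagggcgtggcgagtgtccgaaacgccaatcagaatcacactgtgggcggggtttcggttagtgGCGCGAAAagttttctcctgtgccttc
Pole4 promoter (fell, 1 motif; chr6:82652875-82653124, minus strand): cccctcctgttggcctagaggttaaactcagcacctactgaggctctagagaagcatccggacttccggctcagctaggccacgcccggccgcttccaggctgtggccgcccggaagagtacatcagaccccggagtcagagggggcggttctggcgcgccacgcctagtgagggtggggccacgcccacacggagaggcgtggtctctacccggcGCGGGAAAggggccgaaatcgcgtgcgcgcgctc
Pold4 promoter (rose, no motif; chr19:4231643-4231892, plus strand): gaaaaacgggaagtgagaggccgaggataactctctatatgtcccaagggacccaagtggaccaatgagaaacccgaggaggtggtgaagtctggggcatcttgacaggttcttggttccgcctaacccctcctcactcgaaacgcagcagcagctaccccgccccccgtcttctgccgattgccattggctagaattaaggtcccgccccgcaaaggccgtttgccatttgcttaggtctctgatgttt
Chaf1b promoter (rose, no motif; chr16:93883651-93883900, plus strand): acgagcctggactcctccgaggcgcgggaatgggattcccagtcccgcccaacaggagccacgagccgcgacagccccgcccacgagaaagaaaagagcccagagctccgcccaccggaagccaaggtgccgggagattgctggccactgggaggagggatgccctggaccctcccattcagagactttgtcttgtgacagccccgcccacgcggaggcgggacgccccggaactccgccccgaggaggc
In Mcm5 the 2 motifs, TTTCGCGC on the gene's strand and TTTGGCGC on the other, overlap and begin 153 and 149 bases before the start. In Orc1 and Pole4 the motif begins 27 and 34 bases before it.

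Among the 6 origin recognition complex genes, 3 fell, 2 rose and 1 did not pass. Orc5, an ATPase-fold subunit (ENSMUSG00000029012, chromosome 5, 22486485 to 22550429, GRCm38), had normalised counts of 1091, 1152 and 1211 with NaCl and 739, 813 and 782 with DAHB. All 3 DAHB libraries were below all NaCl libraries (log2 fold change -0.57, SE 0.065, adjusted p = 4.74e-06). Orc1, the largest subunit and the one known to vary with the cell cycle in mammals (ENSMUSG00000028587, chromosome 4, 108579423 to 108614833), stood at 2741, 2908 and 2822 with NaCl and at 1885, 2087 and 2038 with DAHB. The groups again did not overlap (log2 fold change -0.50, SE 0.053, adjusted p = 2.10e-06). Orc2 fell by 0.42 on the log2 scale; 29.8% of its annotated exon bases are shared with Nif3l1 on the other strand, which was at 1468 and 1527. Orc3 and Orc6 rose by 0.17 and 0.21. The call on Orc3 was lost without DAHB replicate 2 (log2 fold change 0.11, adjusted p = 0.110) and without NaCl replicate 2 (0.15, adjusted p = 0.0744). Orc4 had a log2 fold change of -0.07 (95% interval -0.20 to 0.06) and was called higher after the correction for GC and length (0.25, adjusted p = 2.96e-04). The complex thus held genes that moved in opposite directions. With NaCl the highest level per kilobase of exon was that of Orc2, with DAHB that of Orc6. By mean normalised count, which takes no account of length, Orc2 was the highest in both groups, at 4688 and 3509.

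Of the loading factors, Cdc6 and Cdt1 fell and their counterpart Gmnn did not pass. CDC6 is the ATPase that recruits the helicase together with CDT1, and geminin, the product of Gmnn, binds CDT1 and blocks renewed loading after S phase has begun. Cdc6 had normalised counts of 4378, 4256 and 4265 with NaCl and 3579, 3531 and 3739 with DAHB (log2 fold change -0.25, SE 0.044, adjusted p = 2.29e-04). Cdt1 was at 3503, 3369 and 3490 with NaCl and at 3182, 3012 and 2987 with DAHB (-0.17, SE 0.046, adjusted p = 0.00488). Neither gene had overlapping groups, but the call on Cdt1 was lost with quantile scaling (log2 fold change -0.07, adjusted p = 0.211), and its fall was larger after the correction for GC and length (-0.45, adjusted p = 5.28e-08). Gmnn was at 2929, 2698 and 2822 with NaCl and at 2917, 2997 and 2916 with DAHB, groups that overlapped (log2 fold change 0.06, 95% interval -0.04 to 0.17); with quantile scaling it was called higher (0.17, adjusted p = 0.00992).

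The 6 MCM2-7 genes encode a ring in which each subunit is present once, and their mRNAs did not move together: Mcm2, Mcm4 and Mcm5 fell, and Mcm3, Mcm6 and Mcm7 did not pass. Mcm5 (ENSMUSG00000005410, chromosome 8, 75109569 to 75128439), whose promoter holds the overlapping motifs shown above, had normalised counts of 14783, 14287 and 14625 with NaCl and 10086, 10618 and 10208 with DAHB. It had the lowest adjusted p of the 56 genes (log2 fold change -0.50, SE 0.041, adjusted p = 1.94e-07), with every DAHB library well below every NaCl library. Mcm4 (ENSMUSG00000022673, chromosome 16, 15623897 to 15637400) was at 10576, 10719 and 10628 with NaCl and at 8247, 8402 and 8542 with DAHB (-0.34, SE 0.040, adjusted p = 5.28e-06). Mcm2 fell by 0.32 on the log2 scale. By contrast, the 95% intervals of Mcm3, Mcm6 and Mcm7 ran from -0.02 to 0.15, from -0.15 to 0.05 and from -0.06 to 0.13, which leave out changes of the size seen in Mcm2, Mcm4 and Mcm5. Mcm3 was called higher with quantile scaling (0.11, adjusted p = 0.0114), and the sign of Mcm6 turned after the correction for GC and length (0.04, adjusted p = 0.312).

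Levels between genes were compared per kilobase of annotated exon, so their ranks depend on the annotated length. Mcm3 was the highest of the 6 ring genes at 5070 ± 5.7 normalised counts per kilobase (SD, n = 3) with NaCl and 5295 ± 81.5 with DAHB, and Mcm2 the lowest at 1833 ± 22.9 and 1473 ± 25.1. Mcm5, at 3648 ± 63.4, stood second with NaCl and just above Mcm6, at 3595 ± 47.4, in each NaCl library; with DAHB, at 2580 ± 69.7, it stood below Mcm6 and Mcm7. The ratio of the highest to the lowest ring gene was 2.77 with NaCl and 3.59 with DAHB. The annotated exon length was 6.956 kilobases for Mcm2 and 3.589 for Mcm4. By mean normalised count Mcm4 was the lowest ring gene, at 10641 with NaCl and 8397 with DAHB, against 12749 and 10247 for Mcm2. Within each library, Mcm5 per kilobase was 0.731, 0.706 and 0.722 of Mcm3 with NaCl and 0.485, 0.496 and 0.480 of it with DAHB, a pair chosen after the values were seen and given without a test. Such a ratio of 2 genes in 1 library does not depend on the size factor of that library. Quantile scaling and the correction for GC and length act on each gene and can change the ratio. Over all 56 genes Pcna was the highest per kilobase in both groups, at 9112 ± 330 and 7954 ± 345, and Mcm9 the lowest, at 57.6 and 48.8.

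**Figure D3:**
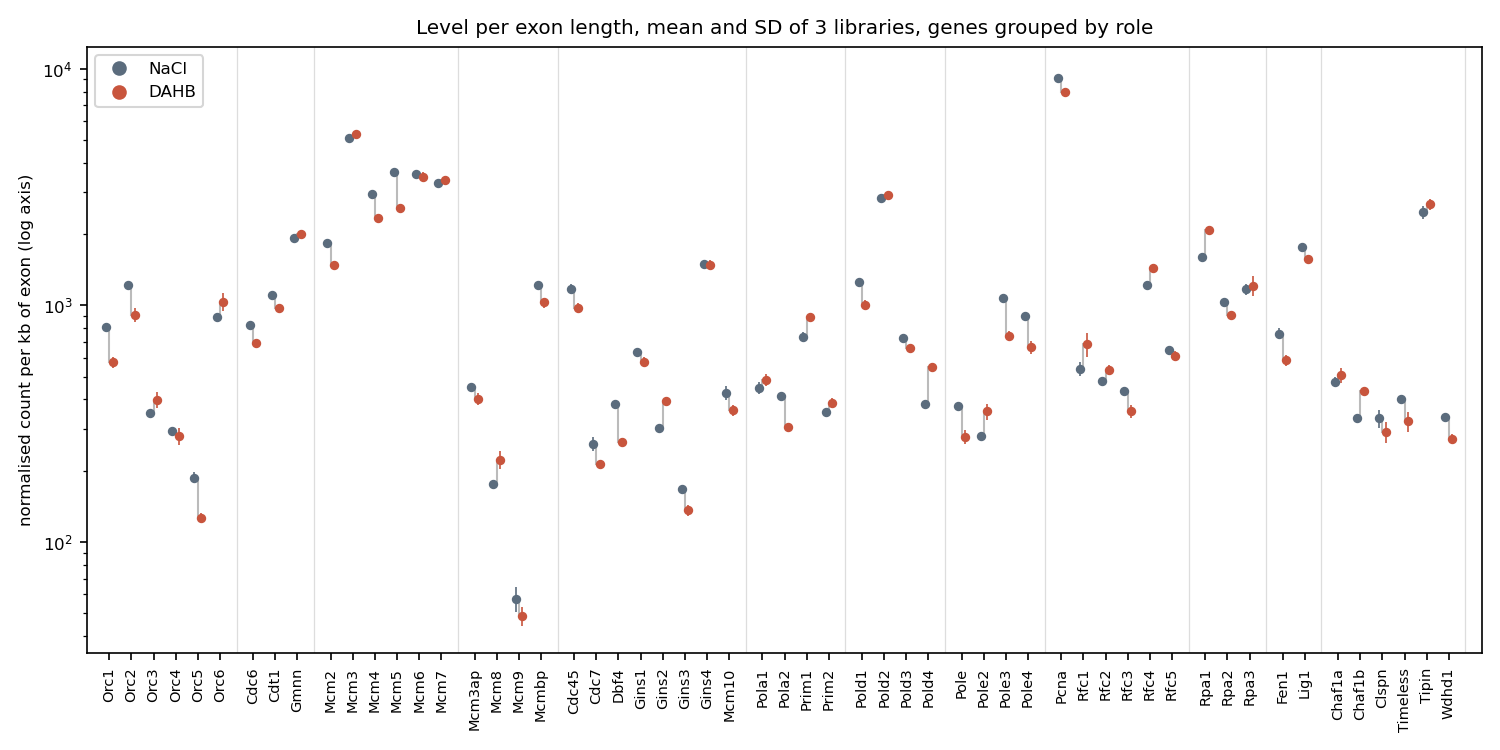
Each pair of points gives the mean normalised count per kilobase of exon of 1 gene with NaCl and with DAHB (log axis, error bars SD, n = 3), with genes grouped by role in the order used in the text. Pcna stands highest, Mcm3 next and Mcm9 lowest in both groups, and the gaps between the 2 groups of samples are small beside the range of levels between genes.

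Genes that share the MCM name but not the ring gave 1 rise, 2 falls and 1 gene that did not pass. Mcm8, which encodes a helicase that works with MCM9 in homologous recombination, was at 644, 627 and 680 with NaCl and at 766, 806 and 907 with DAHB, without overlap (log2 fold change 0.34, SE 0.075, adjusted p = 0.00134). Mcmbp, which encodes a binding partner of MCM subunits, was at 6357, 6150 and 6094 with NaCl and at 4962, 5440 and 5349 with DAHB (-0.24, SE 0.047, adjusted p = 5.03e-04). Mcm3ap, whose product GANP is best known for mRNA export, fell by 0.17 on the log2 scale, a call lost with quantile scaling (adjusted p = 0.287), without DAHB replicate 3 (adjusted p = 0.0779) and without NaCl replicate 2 (adjusted p = 0.0502). Mcm9 had a log2 fold change of -0.24 (95% interval -0.45 to -0.02, adjusted p = 0.0556); 19.2% of its exon bases are shared with Asf1a on the other strand, which fell from 3031 to 1893 normalised counts. Mcm9 was called lower with quantile scaling (adjusted p = 0.0246) and without DAHB replicate 1 or NaCl replicate 1.

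Of the 8 helicase activation genes, 5 fell, 1 rose and 2 did not pass. Dbf4, the activating subunit of the CDC7 kinase (ENSMUSG00000002297, chromosome 5, 8396973 to 8422716), had normalised counts of 3387, 3406 and 3188 with NaCl and 2225, 2405 and 2319 with DAHB. The DAHB libraries all lay below the NaCl libraries (log2 fold change -0.52, SE 0.050, adjusted p = 7.49e-07). Gins2 (ENSMUSG00000031821, chromosome 8, 120578633 to 120589304), a subunit of the GINS tetramer, moved the other way, from 1277, 1204 and 1230 with NaCl to 1623, 1604 and 1626 with DAHB (0.39, SE 0.052, adjusted p = 2.05e-05). Its annotated exons share 67.3% of their bases with Gse1 on the other strand, which was at 803 and 952.5 and did not pass (adjusted p = 0.0676), and without a stated strand setting the reads of the 2 genes cannot be told apart. The kinase gene Cdc7 fell by 0.29 on the log2 scale, a call lost after the correction for GC and length (-0.15, adjusted p = 0.0568), and Cdc45, Gins3 and the initiation factor gene Mcm10 fell by 0.26, 0.30 and 0.24. Gins1 (-0.14, adjusted p = 0.0716) and Gins4 (-0.01, 95% interval -0.12 to 0.11) did not pass. The 4 GINS subunits, which form a complex of 1 copy each, thus comprised 1 gene that rose, 1 that fell and 2 that did not pass.

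In DNA polymerase alpha-primase, which lays down the RNA-DNA primers, Pola2 fell, Prim1 rose and 2 genes did not pass. Pola2, the regulatory B subunit (ENSMUSG00000024833, chromosome 19, 5940542 to 5964202), was at 3516, 3345 and 3386 with NaCl and at 2645, 2466 and 2485 with DAHB (log2 fold change -0.43, SE 0.048, adjusted p = 3.31e-06). Prim1, the catalytic primase subunit, was at 2880, 2689 and 2964 with NaCl and at 3306, 3578 and 3461 with DAHB (0.28, SE 0.052, adjusted p = 3.46e-04). In both genes every DAHB library lay on the same side of every NaCl library. The polymerase subunit gene Pola1 and the large primase subunit gene Prim2 had log2 fold changes of 0.11 (95% interval -0.01 to 0.23) and 0.13 (0.01 to 0.25, adjusted p = 0.0549). Both genes were called higher with quantile scaling (adjusted p = 0.00508 and 0.00489) and after the correction for GC and length (adjusted p = 4.33e-06 and 6.47e-05), and both without DAHB replicate 1 (adjusted p = 0.00810 and 0.00723). Pola1 was also called without NaCl replicate 2 (adjusted p = 0.0354), and Prim2 without NaCl replicate 1 (adjusted p = 0.0432), with equal library totals (adjusted p = 0.0338) and by edgeR.

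DNA polymerase delta, the main lagging strand polymerase, had 2 genes that fell, 1 that rose and 1 that did not pass. Pold4, the smallest accessory subunit (ENSMUSG00000024854, chromosome 19, 4231899 to 4233634), showed the largest rise of the 56 genes, from 440, 448 and 450 normalised counts with NaCl to 612, 653 and 654 with DAHB (log2 fold change 0.52, SE 0.071, adjusted p = 2.43e-05). Of its exon bases 24.6% are shared with another annotated gene on the same strand, AC109138.7. The catalytic subunit gene Pold1 went the other way, from 6408, 5872 and 5939 to 5111, 4644 and 4874 (-0.32, SE 0.050, adjusted p = 9.22e-05). Neither gene had overlapping groups. After the correction for GC and length Pold1 had the largest change of the 56 genes (-0.68, adjusted p = 2.67e-09). Pold3 fell by 0.13 on the log2 scale, the smallest change called among the 56 genes, and this call was lost with quantile scaling (adjusted p = 0.587), after the correction for GC and length (adjusted p = 0.312), and without NaCl replicate 1 (adjusted p = 0.0777), NaCl replicate 2 (adjusted p = 0.103) or DAHB replicate 3 (adjusted p = 0.0622). Pold2 did not pass (0.05, 95% interval -0.05 to 0.15), and was called higher with quantile scaling (0.14, adjusted p = 0.0142) and lower after the correction for GC and length (-0.17, adjusted p = 8.07e-04).

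All 4 genes of DNA polymerase epsilon, the main leading strand polymerase, passed the test, 3 falling and 1 rising. Pole3, one of the pair of histone-fold subunits (ENSMUSG00000028394, chromosome 4, 62522649 to 62525068), had normalised counts of 2194, 2231 and 2137 with NaCl and 1442, 1531 and 1586 with DAHB (log2 fold change -0.53, SE 0.053, adjusted p = 1.28e-06). Its histone-fold partner Pole4 (ENSMUSG00000030042, chromosome 6, 82618992 to 82705365) was at 2237, 2267 and 2256 with NaCl and at 1549, 1733 and 1714 with DAHB (-0.44, SE 0.054, adjusted p = 9.74e-06). Both histone-fold genes were thus lower in every DAHB library. The catalytic subunit gene Pole fell by 0.43 on the log2 scale, while Pole2, the B subunit, rose by 0.34 (adjusted p = 8.00e-04). In a comparison within libraries chosen after the values were seen, Pole per kilobase was 1.27, 1.45 and 1.28 of Pole2 with NaCl and 0.917, 0.717 and 0.729 of it with DAHB. The order of the 2 subunit mRNAs per kilobase was thus the opposite in the 2 groups, which rests on the annotated exon lengths. By mean normalised count Pole was above Pole2 in both groups, at 4174 against 810 with NaCl and 3107 against 1026 with DAHB.

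The sliding clamp gene Pcna and the 5 clamp loader genes split into 3 rises, 2 falls and 1 gene that did not pass. Pcna, which tethers polymerases to DNA, had the highest mean normalised count over all 6 libraries. It was at 22514, 20985 and 22111 with NaCl and at 18203, 19844 and 19222 with DAHB. With DAHB, Mcm3 was higher than Pcna in every library, at 19524, 20112 and 19965. Pcna fell by 0.20 on the log2 scale (adjusted p = 0.00250), and the call was lost after the correction for GC and length (-0.07, adjusted p = 0.103). A processed pseudogene, Pcna-ps2, was also in the table, at 96 to 134 normalised counts in the 6 libraries, and reads of the pair could have been split in counting. Rfc1, the large subunit of the loader, was at 3329, 3411 and 3000 with NaCl and at 4665, 3807 and 3891 with DAHB (0.34, SE 0.072, adjusted p = 0.00105), with DAHB replicate 1 above the other DAHB libraries. Rfc3, a small subunit, was at 1625, 1498 and 1570 with NaCl and at 1193, 1348 and 1322 with DAHB (-0.28, SE 0.061, adjusted p = 0.00123). The small subunit genes Rfc4 and Rfc2 rose by 0.24 and 0.16, the latter not without DAHB replicate 2 (0.12, adjusted p = 0.0640), and Rfc5 did not pass (-0.08, 95% interval -0.19 to 0.03).

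Replication protein A, which coats single-stranded DNA as a trimer, had 1 gene in each class. Rpa1, the large DNA-binding subunit (ENSMUSG00000000751, chromosome 11, 75298166 to 75348324), rose from 9098, 8909 and 8813 normalised counts with NaCl to 11578, 11703 and 11461 with DAHB (log2 fold change 0.37, SE 0.040, adjusted p = 2.26e-06). Rpa2, the subunit phosphorylated in the cell cycle and after damage, was at 3075, 3107 and 3121 with NaCl and at 2595, 2721 and 2843 with DAHB (-0.19, SE 0.048, adjusted p = 0.00360), a call lost with quantile scaling (-0.09, adjusted p = 0.116). The groups were apart in both genes. Rpa3 did not pass (0.05, 95% interval -0.11 to 0.20), and was called higher after the correction for GC and length (0.16, adjusted p = 0.0212). Per kilobase, Rpa2 was 0.630, 0.650 and 0.660 of Rpa1 with NaCl and 0.418, 0.433 and 0.462 of it with DAHB, again a pair chosen after the values were seen.

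Both genes of Okazaki fragment maturation fell. Fen1, the flap endonuclease that trims the 5′ ends of lagging strand fragments, was at 1948, 1778 and 1787 normalised counts with NaCl and at 1401, 1358 and 1502 with DAHB (log2 fold change -0.37, SE 0.059, adjusted p = 8.71e-05). An antisense gene, Gm10143, covers 78.8% of its exon bases and was at 17.1 and 14.5. Lig1, the ligase that joins the fragments, was at 7726, 7355 and 7522 with NaCl and at 6679, 6750 and 6562 with DAHB (-0.18, SE 0.041, adjusted p = 0.00211). Neither gene had overlapping groups.

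Of the genes that protect the fork or assemble chromatin behind it, 3 fell, 1 rose and 2 did not pass. Chaf1b, the middle subunit of chromatin assembly factor 1 (ENSMUSG00000022945, chromosome 16, 93883901 to 93906115), was at 1587, 1487 and 1596 with NaCl and at 2048, 2072 and 1993 with DAHB (log2 fold change 0.39, SE 0.052, adjusted p = 1.75e-05), with the groups apart. Its large subunit partner Chaf1a did not pass (0.10, 95% interval -0.03 to 0.22); Ubxn6 on the other strand shares 52.5% of its exon bases and fell from 1142 to 948. Chaf1a was called higher with quantile scaling (0.20, adjusted p = 0.00851) and without DAHB replicate 2. Timeless, which with Tipin forms a pair of proteins that travels with the fork, was at 2515, 2498 and 2323 with NaCl and at 2192, 1845 and 1894 with DAHB (-0.31, SE 0.065, adjusted p = 9.33e-04). Its partner Tipin did not pass (0.11, 95% interval -0.01 to 0.23), and was called higher with quantile scaling (adjusted p = 0.00457), after the correction for GC and length (adjusted p = 4.35e-04) and without NaCl replicate 1 or DAHB replicate 1. Wdhd1, which links the helicase to polymerase alpha, fell by 0.31 on the log2 scale. Clspn, the mediator of the ATR to CHK1 checkpoint signal, was called lower (-0.19, adjusted p = 0.0402) although its groups overlapped, and the call was lost in 7 of 16 alternatives, among them without DAHB replicate 2, DAHB replicate 3 or NaCl replicate 2, with adjusted p up to 0.272.

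**Figure D4:**
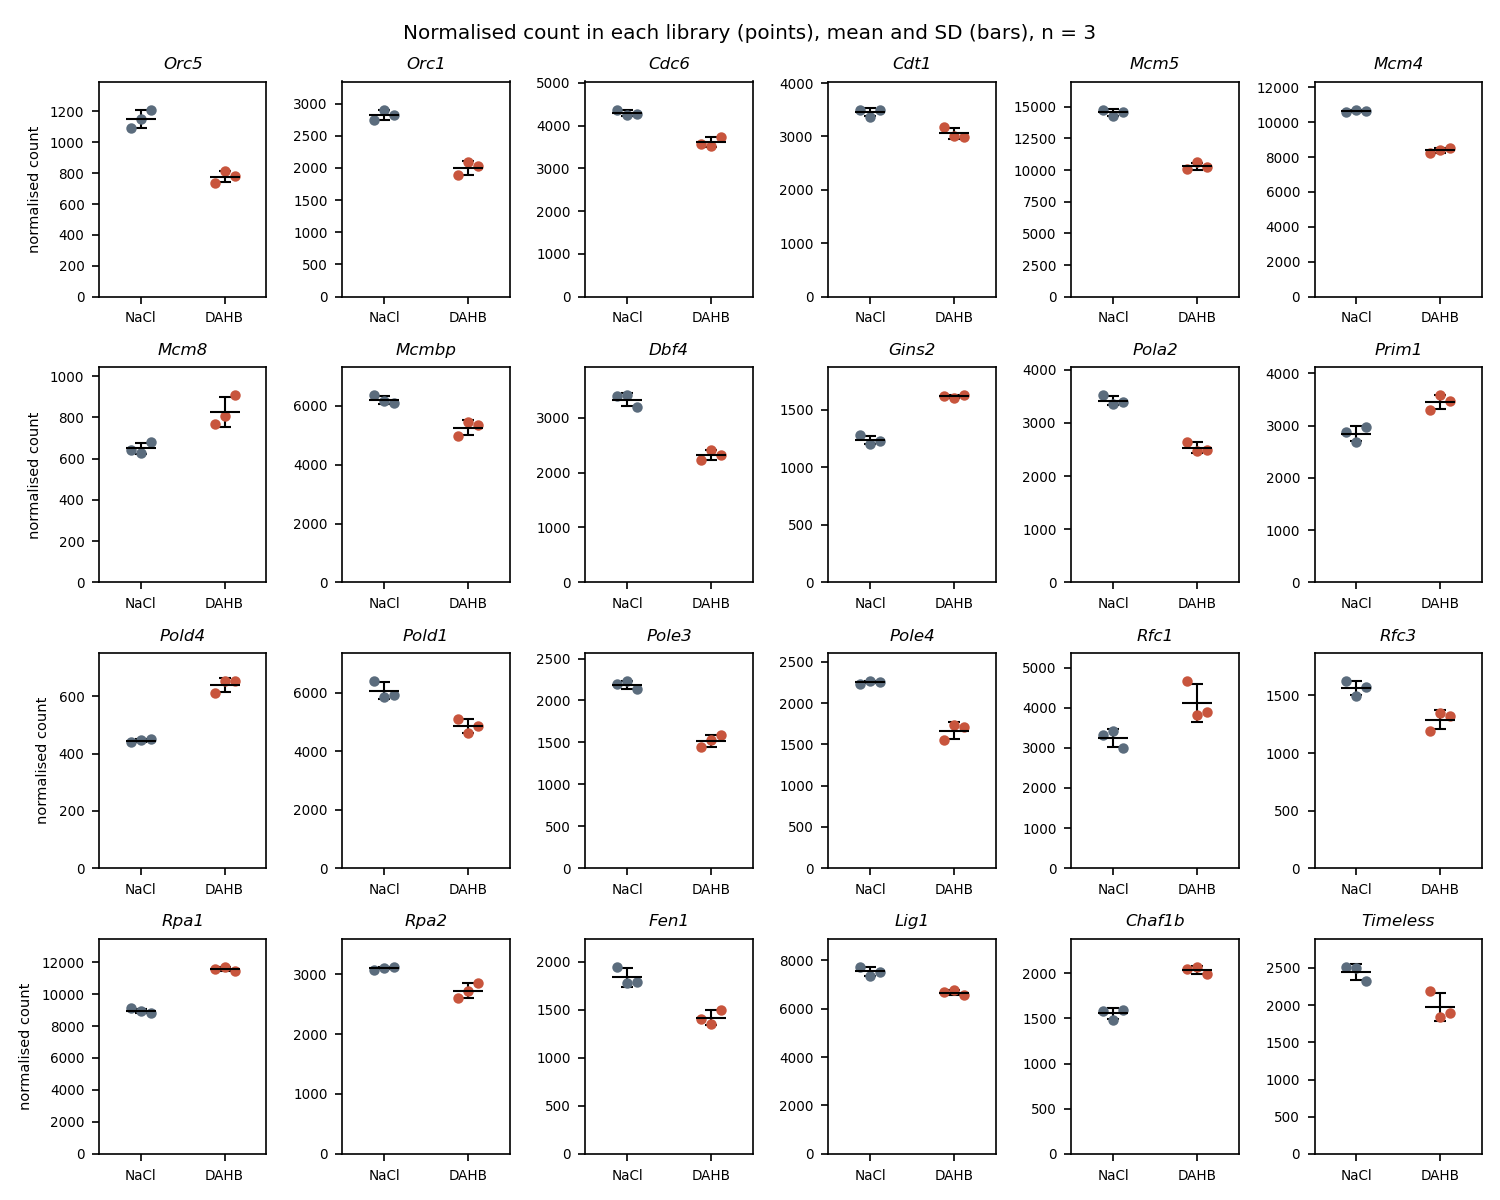
Each panel shows the normalised counts of 1 gene in the 3 NaCl and 3 DAHB libraries (points) with the mean and SD (n = 3), for the 24 genes given with every library by rule; each axis starts at 0. In all panels the points of the groups are apart, and the distance is small beside the level, as in Mcm5 (14287 to 14783 against 10086 to 10618).

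Further genes that act in the same steps were taken from lists. Of 25 genes of E2F and RB control of S phase entry, 12 fell and 6 rose, with a median log2 fold change of -0.12. Cyclin E2 (Ccne2) fell from 2466 ± 56.2 to 1348 ± 203 (SD, n = 3), Skp2, a ubiquitin ligase subunit that targets p27, from 972 ± 73.2 to 590.2 ± 14.4, and the atypical repressor gene E2f7 from 449 ± 27.0 to 285 ± 12.7. E2f1, singled out with its value known, rose by 0.33 on the log2 scale (adjusted p = 1.85e-04). Of 35 other replisome and origin factors, 18 fell and 7 rose, with a median of -0.18. The histone chaperone gene Asf1a fell by 0.68 on the log2 scale, the histone mRNA binding protein gene Slbp by 0.60 and the ubiquitin ligase scaffold gene Cul4a by 0.59. Asf1a shares exon bases with Mcm9. Among the 7 that rose were Top2a (0.57) and Asf1b (0.42), singled out with their values known. Of 20 mitosis genes, 11 fell and none rose (9 did not pass), with a median of -0.12, and Cdc20, Plk1 and Kif20a fell by 1.22, 0.59 and 0.47. In the range of mean counts of the replication genes, where 42.2% of genes fell, were 23 of the 25, 31 of the 35 and all 20 genes of these lists.

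Reads assigned to genes of the table numbered 31055613 to 56007582 in a library, and the lowest read count of any of the 56 genes was 326. The 7 CD8 T cell markers were all in the table, with 45364, 44784 and 44646 normalised counts summed over them with NaCl and 52267 to 55174 with DAHB. Of these, 4 rose, led by Cd8a (0.59) and Cd8b1 (0.51 on the log2 scale), Trac and Cd3d fell by 0.31 and 0.20, and Cd3e did not pass. Of 13 markers of other cells in the table, 8 rose and 5 did not pass, where 29.4% of all genes tested rose and 29.1% fell. Most of the 13 lay outside the range of mean counts of the replication genes. Inside it were 1 of 3 CD4 T cell, 0 of 1 B cell, 1 of 5 myeloid and 1 of 4 endothelial and stromal markers. In that range 24.8% of genes rose and 42.2% fell. The only B cell marker of 5 in the table, Cd79b, was at 118 to 149 with NaCl and 549 to 623 with DAHB. Of 6 myeloid markers 5 were in the table, summing to 614 to 1133 and 1244 to 1580; Lyz2, Cd68 and Adgre1 rose, Lyz2 with overlapping groups, and Itgam and Csf1r did not pass. Of 4 CD4 T cell markers 3 were in the table, summing to 659 to 675 and 1560 to 1885; Cd4 was at a mean of 11.6 with NaCl and 65.5 with DAHB, Zbtb7b at 602 and 1574, and Cd40lg did not pass. Of 5 endothelial and stromal markers 4 were in the table, summing to 788 to 886 and 1455 to 1510; Pecam1 rose from 610 to 1108 and Pdgfrb from 61.4 to 195, and Col1a1 and Col1a2 did not pass. None of the 3 NK cell markers was in the table. The part of such cells in the replication gene results was not tested. Exons of 22 of the 56 genes overlap those of another annotated gene, by at least 20% of their bases in 5 (Orc2, Gins2, Pold4, Fen1 and Chaf1a).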

How the data were processed

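Total RNA of 3 NaCl and 3 DAHB samples was sequenced. The submitters' processing notes name Trimmomatic 0.36, STAR 2.5.2b, featureCounts 1.5.2, DESeq2 and the GRCm38 build; annotation release and strand setting are not given in the sources used here. The deposited values are a normalised signal: the authors divided the reads of a gene by a size factor for each library. Dividing by the step that 1 read is worth gave whole reads for 100% of values in every library (tolerance 0.001). No gene had fewer than 61 reads in total, so rarer genes had been left out.

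Genes with at least 10 normalised counts in at least 3 libraries were kept (13804). Differences of log2(normalised count + 1) were tested with limma-trend (two-sided; limma 3.58.1, R 4.3.3) and Benjamini-Hochberg adjustment over all genes (threshold 0.05), which gave the adjusted p-values and 95% intervals unless an alternative is named. GENCODE M21 (GRCm38) gave coordinates, exon lengths and overlaps. In each of 12 roles, up to 2 genes past the threshold, the ones changed most and averaging 100 or more normalised counts in either group, are given with every library; of other lists, up to 3. The genes, lists and roles were chosen with earlier results of these data known. Replicate libraries differed by more than counting error (4.64 to 17.5 times, as chi-square per degree of freedom), and each counted as 1 sample. Alternatives were other pseudocounts, filters and scalings, a replicate block, each library left out in turn, edgeR 4.0.16 and DESeq2 1.42.0 on the whole reads, and, added after seeing the data, a correction for GC and length. Figures were made with matplotlib 3.10.9.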

Additional observations from a re-analysis of the deposited data

How the results depend on the processing

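The counts of replication genes that rose and fell were 12 and 29 and stayed within 1.5 times of these under all 16 alternatives, except that 19 rose with quantile scaling (25 fell). The median log2 fold change of the 56 genes moved from -0.17 to -0.08 with quantile scaling and -0.11 after the correction for GC and length. DESeq2 gave 12 and 29, edgeR 13 and 29, equal library totals 13 and 28, and both other pseudocounts (0.5, 10) and both other filters (none, 50) 12 and 29. With 1 library left out 11 to 15 rose and 26 to 30 fell, while 7054 to 8077 of all genes were called. Of the genes that fell 22 of 29, and of those that rose 10 of 12, kept their call in every alternative. The sign of genes that did not pass turned in a few alternatives, and the cause was not tested: Orc4 to 0.0137 with quantile scaling and 0.252 after the correction for GC and length, Mcm6 to 0.0438 and Pold2 to -0.166 after that correction, Rfc5 to 0.0201 with quantile scaling, and Gins4 to 2.155e-05 with equal totals and 0.0827 with quantile scaling. With 1 library left out, Gins4 lay between -0.0315 and 0.0312 and Rpa3 between -0.00724 and 0.127. The replicate number pairs nothing in the labels, and deviations of same-numbered libraries had correlations of -0.05, -0.15 and 0.04; with the replicate block 12 genes rose and 28 fell (Clspn was lost, adjusted p = 0.0505), and over all genes 3931 rose and 3841 fell. The lowest read count of any of these genes in a library was 326. The SE of the log2 fold change was 0.099 for Mcm9 and 0.082 for Gins3, both among the least counted, and 0.040 for Mcm3. It was 0.075 for Clspn and 0.072 for Rfc1, with mean normalised counts over all libraries of 2242 and 3684. The part of depth in these SE values was not tested.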
